A study of Mus musculus with 6 samples.

Results

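The oxysterol-binding protein family was examined in whole testes of 8-week-old mice, in 3 libraries labelled Ccdc117ko and 3 labelled WT. Its 10 members were taken by gene symbol from a table of 36652 genes, and all 10 were among the 32783 genes tested. They are Osbpl5, Osbpl8, Osbpl1a, Osbpl2, Osbpl3, Osbpl6, Osbpl9, Osbpl11, Osbp and Osbp2. The set was selected on values of this same comparison: it was chosen by the lower normalized counts of Osbpl5 in the libraries labelled Ccdc117ko. The fold changes of the members are therefore given as a description, with no p-value. Osbpl5 had been picked as the largest fall of a well expressed gene, which the data did not bear out. Where the mean was 500 normalized counts or more (9408 genes), it had the 6th lowest log2 fold change, after Zc3h11a, Qser1, Zfp759, Septin2 and, nearest to it, Gm29253 at -2.22. The labels give genotype, age and tissue, and state neither the strain, the kind of Ccdc117 allele, nor whether the replicates came from separate mice. P-values printed for other genes hence measure the spread between these samples only.

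Oxysterol-binding proteins carry lipids between membranes that lie close together. A conserved lipid-binding domain takes up a sterol or phosphatidylserine at the endoplasmic reticulum and swaps it for phosphatidylinositol 4-phosphate (PI4P) made on the Golgi, the plasma membrane or endosomes. Most members are held at the endoplasmic reticulum by the VAP proteins, and the phosphatase Sac1 (gene Sacm1l) removes the returned PI4P there. In the mouse testis, Osbp2 is known from knockout males, which are sterile with few and malformed sperm.

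The windows around the start sites of Osbpl5 are shown because Osbpl5 is the member the comparison turned on. RefSeq (GRCm38.p6) gives the gene 3 start sites on the minus strand of chromosome 7, at 143757008, 143741963 and 143740360. The second lies 15.045 kb and the third 16.648 kb into the gene. Each window runs from 250 bases before to 50 bases after the start, is written 5′ to 3′ on the strand of the gene, and has its CpG pairs in capitals.
Osbpl5 start 1, chr7:143756959-143757258: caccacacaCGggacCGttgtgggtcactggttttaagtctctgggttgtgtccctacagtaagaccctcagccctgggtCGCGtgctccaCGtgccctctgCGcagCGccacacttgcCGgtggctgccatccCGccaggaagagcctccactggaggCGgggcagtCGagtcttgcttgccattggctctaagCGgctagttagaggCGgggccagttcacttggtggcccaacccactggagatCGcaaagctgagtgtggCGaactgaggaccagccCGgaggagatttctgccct
Osbpl5 start 2, chr7:143741914-143742213: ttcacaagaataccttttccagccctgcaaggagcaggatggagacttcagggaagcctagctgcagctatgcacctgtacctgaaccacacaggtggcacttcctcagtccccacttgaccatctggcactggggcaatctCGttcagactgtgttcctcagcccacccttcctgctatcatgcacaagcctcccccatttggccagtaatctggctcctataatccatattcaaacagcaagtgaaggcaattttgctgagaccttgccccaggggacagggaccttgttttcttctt
Osbpl5 start 3, chr7:143740311-143740610: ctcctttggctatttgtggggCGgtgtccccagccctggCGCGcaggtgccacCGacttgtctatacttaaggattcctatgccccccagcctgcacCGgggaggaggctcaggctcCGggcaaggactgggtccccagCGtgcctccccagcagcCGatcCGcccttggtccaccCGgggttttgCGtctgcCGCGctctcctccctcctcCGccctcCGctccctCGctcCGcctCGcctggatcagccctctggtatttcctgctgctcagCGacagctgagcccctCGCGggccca
The first window holds 16 CpG pairs at 62% GC, the second 1 at 52% and the third 21 at 68%. Gene-level counts cannot tell which start was used.

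Both strands of 15 windows, for 9 of the 10 members, were searched for 3 short motifs of steroid and sterol control. AAGGTCA is bound by NR5A1, TGACGTCA the cAMP response element and TCACCCCAC the core of a sterol regulatory element. Over all 32851 RefSeq windows they were found in 4.72%, 1.79% and 0.551%. Among the members 2 windows held a match, shown with the motif in capitals, and none of the 3 Osbpl5 windows did.
Osbpl2, chr2:180119080-180119116, plus strand: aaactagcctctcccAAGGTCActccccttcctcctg
Osbpl9, chr4:109202231-109202268, minus strand: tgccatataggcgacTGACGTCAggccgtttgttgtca
The first begins 211 bases before the Osbpl2 start and the second 20 bases after an Osbpl9 start. A match describes letters only.

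Library depth was even, with 35791616 to 43461692 whole reads recovered per library. The first principal component held 32.9% of the variance and separated the genotypes. Ccdc117 itself was not lower by label, with 3719 ± 220 normalized counts in the libraries labelled Ccdc117ko against 3805 ± 138 in WT (SD, n = 3 each; limma adjusted p = 0.763), and a total over the whole gene could miss a short deletion. Over all genes tested, limma called 6.80% at an adjusted p under 0.05. By direction, 3.70% of genes were higher in Ccdc117ko and 3.10% lower. The genotypes did not overlap in 27.0% of genes. Marker genes of Leydig, Sertoli and all germ cell stages were present, as whole testis should have, and no listed marker was at 0 in every library.

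Osbpl5 (ENSMUSG00000037606, chr7:143688762-143756985 in GRCm38, minus strand) encodes ORP5, an endoplasmic reticulum protein with a membrane anchor at its end. In human cell lines it moves phosphatidylserine to the plasma membrane against PI4P, and in the mouse placenta the gene is imprinted. Its normalized counts, that is reads divided by the size factor of the library, were 304.8, 243 and 279 in the libraries labelled Ccdc117ko, against 899.6, 855 and 963 in WT. The genotypes were far apart: the highest Ccdc117ko library lay well under the lowest WT library. These values rest on 305, 239 and 277 whole reads in the Ccdc117ko libraries and on 829, 953 and 980 in WT. The means were 275.6 ± 31.1 in Ccdc117ko and 905.9 ± 54.4 in WT (SD, n = 3 each), a ratio of 0.304 (Ccdc117ko over WT), with a log2 fold change of -1.72 ± 0.09 (SE). It was the only member called by limma, where 6.80% of all genes were called. Since that contrast chose the gene, nothing is read from the call. Without Ccdc117ko replicate 3 the call was lost at a log2 fold change of -1.73, in a fit that called 8 genes of the whole table. In bulk tissue, fewer cells of a type and less RNA per cell cannot be told apart.

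Osbpl8 encodes ORP8, the closest relative of ORP5, which has the same kind of membrane anchor and does the same exchange at the plasma membrane. It lies on chromosome 10 (chr10:111164752-111297249, plus strand). The libraries labelled Ccdc117ko held 1150.3, 1068 and 1113 normalized counts and the WT libraries 1142, 1157 and 1267. The groups overlapped, with means of 1110.3 ± 41.2 in Ccdc117ko and 1189 ± 68.2 in WT (SD, n = 3 each) and a log2 fold change of -0.10 ± 0.06 (SE). After removal of the trend with transcript length and GC content the difference was 0.01. Per kilobase of the longest transcript, the mean of Osbpl5 was 0.448 times that of Osbpl8 in the Ccdc117ko libraries and 1.37 times in WT. With the median transcript length these ratios were 1.08 in Ccdc117ko, where the values of the pair overlapped, and 3.31 in WT. How the pair compared in Ccdc117ko thus rests on the length taken.

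**Figure D1:**
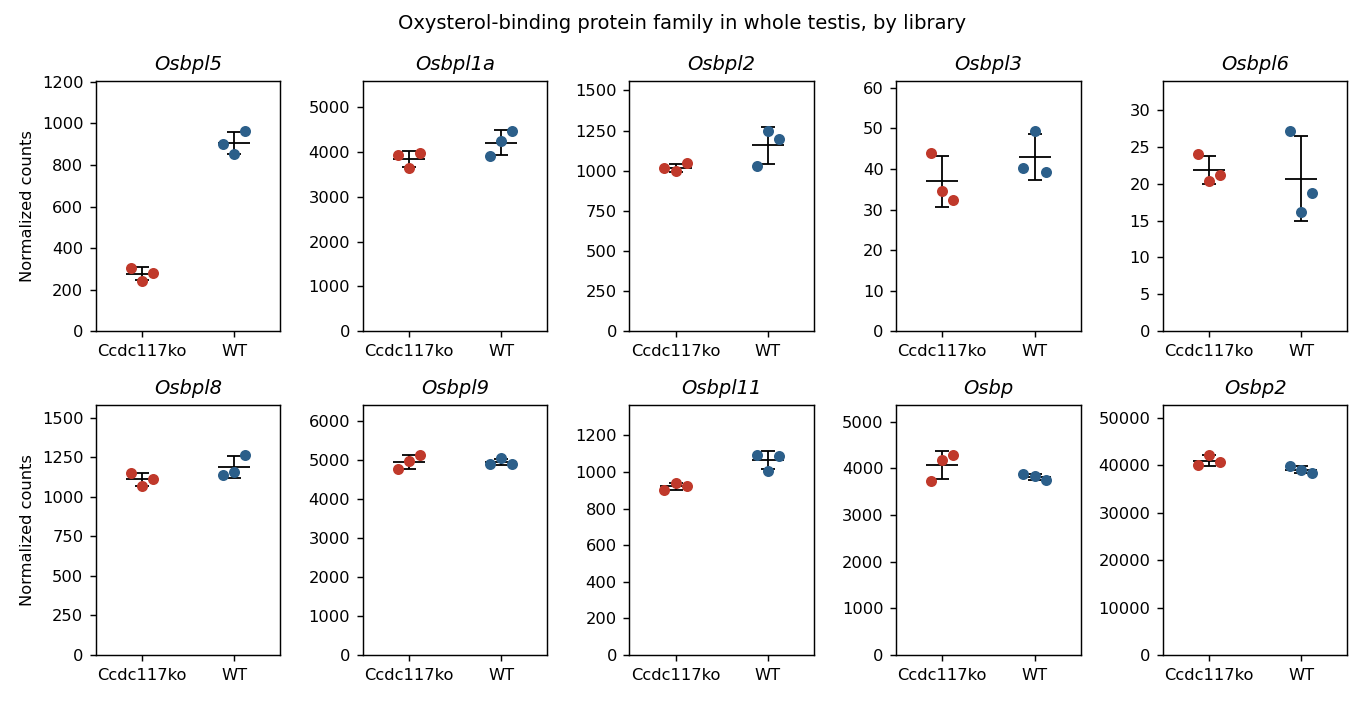
Normalized counts of the 10 members in each library, one panel per gene with its own axis, with the 3 Ccdc117ko libraries left of the 3 WT libraries and bars at the mean ± SD. Osbpl5 separates widely (275.6 against 905.9 on average), Osbpl11 and Osbp2 separate narrowly in opposite directions, and the other panels overlap.

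Osbp2 and Osbp, which are among the sterol-binding members of the family, had log2 fold changes just above 0. Osbp2 (ORP4, chr11:3703731-3863903, minus strand) is the member known to be needed for sperm formation in the mouse. It held 40046, 42239 and 40637 normalized counts in the libraries labelled Ccdc117ko, against 39839, 38925 and 38349 in WT. Every Ccdc117ko library was above every WT library, by a small margin, as in 27.0% of all genes for either direction. The means were 40974 ± 1134 in Ccdc117ko and 39037 ± 751 in WT (SD, n = 3 each), 4.96% higher, with a log2 fold change of 0.07 ± 0.03 (SE). It was not called. With the length and GC trend removed the difference was 0.17 and Osbp2 was called higher.

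Osbp (chr19:11965941-11994112, plus strand) encodes the founding member, which brings cholesterol from the endoplasmic reticulum to the Golgi. Normalized counts came to 3737, 4181 and 4288 in the libraries labelled Ccdc117ko, against 3870, 3836 and 3746 in WT. The lowest value of all was a Ccdc117ko library, so the groups overlapped. Means were 4068 ± 292 in Ccdc117ko and 3817 ± 63.9 in WT (SD, n = 3 each). The log2 fold change was 0.09 ± 0.06 (SE), or 0.19 after the length and GC correction.

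Osbpl9 and Osbpl11 encode partner proteins that work between the endoplasmic reticulum, the Golgi and late endosomes. Osbpl11 (chr16:33185071-33243312, plus strand) had 900.4, 937 and 924 normalized counts in the libraries labelled Ccdc117ko, against 1094, 1007 and 1089 in WT. All Ccdc117ko libraries were below all WT libraries, with a gap a little narrower than the WT range. The means were 920.5 ± 18.5 in Ccdc117ko and 1063 ± 48.6 in WT (SD, n = 3 each), a ratio of 0.866, with a log2 fold change of -0.21 ± 0.05 (SE), which was not called. After the length and GC correction it was -0.11. Osbpl9 (chr4:109061145-109202272, minus strand) held 4757, 4957 and 5126 normalized counts in the libraries labelled Ccdc117ko, against 4888, 5040.4 and 4901 in WT. The WT values lay inside the Ccdc117ko range, and the log2 fold change was 0.00 ± 0.04 (SE). The Osbpl9 value is uncertain, because 31.6% of the 50-base words of its longest transcript occur in another gene, mainly Nrd1 on the opposite strand, and the use of strand in counting is not given in the sources used here.

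Osbpl1a and Osbpl2 encode sterol-binding members of endosomes and of the plasma membrane and lipid droplets. Osbpl1a (chr18:12755314-12941841, minus strand), whose long protein form sits on late endosomes, had 3937, 3645 and 3966 normalized counts in the libraries labelled Ccdc117ko, against 3912, 4238 and 4463 in WT. Osbpl2 (chr2:180119306-180162680, plus strand) had 1016, 996 and 1045 in the libraries labelled Ccdc117ko, against 1029, 1247 and 1197 in WT. Both pairs of groups overlapped through WT replicate 1, the lowest WT library for each gene. Log2 fold changes were -0.13 ± 0.06 for Osbpl1a and -0.18 ± 0.08 for Osbpl2 (SE), and -0.05 and -0.13 after the length and GC correction. Without WT replicate 1, Osbpl2 was called lower at a log2 fold change of -0.26.

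Osbpl3 and Osbpl6, close relatives of each other that bind the endoplasmic reticulum and the plasma membrane, were barely expressed. Osbpl3 (chr6:50293330-50456201, minus strand) held 43.97, 34.6 and 32.2 normalized counts in the libraries labelled Ccdc117ko, against 40.2, 49.3 and 39.3 in WT. Osbpl6 (chr2:76406508-76600647, plus strand) held 24.0, 20.3 and 21.2 in the libraries labelled Ccdc117ko, against 27.1, 16.1 and 18.7 in WT. The groups overlapped for both, with log2 fold changes of -0.22 ± 0.20 and 0.11 ± 0.27 (SE). Both differences were within about 1 standard error of 0 and neither was called. Osbpl6 also had the widest spread of the 10 members among replicates, with a coefficient of variation of 27.9% in WT.

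**Figure D2:**
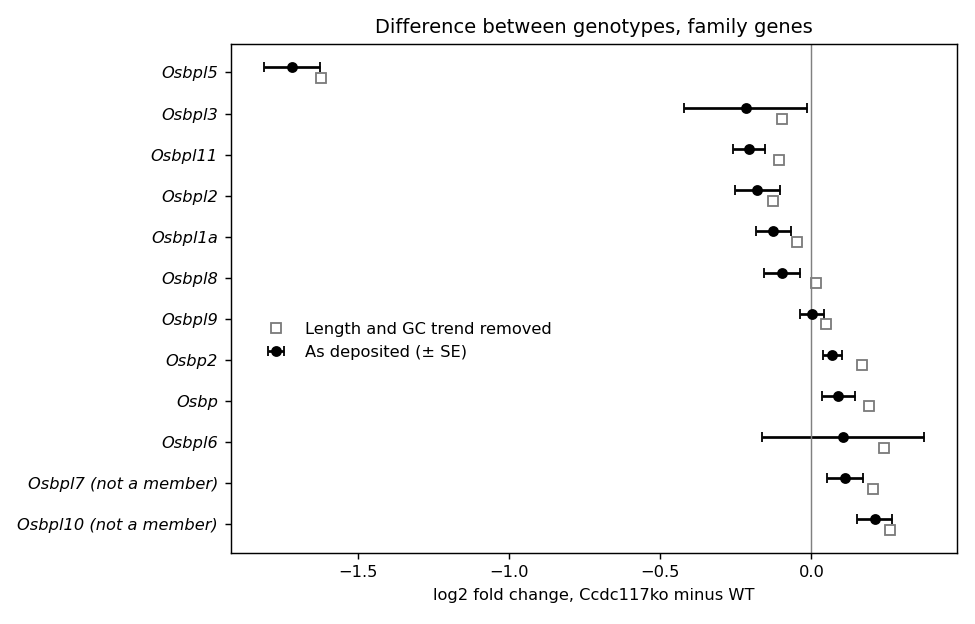
Log2 fold change of each member and of Osbpl7 and Osbpl10, Ccdc117ko minus WT, as fitted with its standard error (filled) and after removal of the trend with transcript length and GC content (open). Osbpl5 stands at -1.72, and the other 9 members lie between -0.22 and 0.11 as fitted.

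Across the family, 1 of 10 members was called lower and 0 higher by limma, against 3.10% and 3.70% of all genes. The 1 call was Osbpl5, on which the set was selected, so nothing is read from it. The other 9 members were not called. An unadjusted limma p under 0.05 was reached by 3 of the 10 members, Osbpl5 among them, and by 7436 of the 32783 genes tested. The FDR in the authors' deposited table was under 0.05 for 2 of the 10, Osbpl5 and Osbpl11, against 11.5% of all genes there. Log2 fold changes were below 0 for 6 members and above 0 for 4, with a median of -0.11 over the members and 0.00 over all genes tested. The 9 members other than Osbpl5 ranged from -0.22 to 0.11. After the length and GC correction 5 members were on each side of 0 and the median was -0.02, beside 0.02 for all genes. Osbpl8 changed sign under that correction. The longest transcripts of the members had a median of 4292.5 bases, against 3262 for the 14256 protein-coding genes that averaged 50 normalized counts or more. Of those, the 7791 in the length range of the members had a median log2 fold change of -0.08, and 66.9% were below 0. A genome-wide lean of long genes to lower values thus lay beside the small negative values of the members, and its part in them was not tested. With genes averaging under 10 normalized counts left out, 16.6% of genes were called and 2 members, Osbpl5 and Osbpl11.

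The levels of the members spanned a wide range when set per kilobase of the longest transcript. Osbp2 led with 10001 ± 277 normalized counts per kilobase in the libraries labelled Ccdc117ko and 9528 ± 183 in WT (SD, n = 3 each here and below), in WT 6.04 times the next member. Osbpl9 followed among the members with 1578 ± 58.9 in Ccdc117ko and 1577 ± 27.0 in WT. Ranked together with Osbpl7 and Osbpl10, which are not members, Osbpl9 was 3rd in both genotypes, below Osbp2 and Osbpl10. Osbpl1a had 973 ± 44.9 in Ccdc117ko and 1063 ± 70.1 in WT. A middle group followed. Osbp had 907 ± 65.1 per kilobase in Ccdc117ko and 851 ± 14.2 in WT, and Osbpl2 had 363 ± 8.81 in Ccdc117ko and 413 ± 40.7 in WT. Osbpl11 had 204 ± 4.10 in Ccdc117ko and 235 ± 10.7 in WT. Osbpl5 had 69.0 ± 7.79 in Ccdc117ko and 227 ± 13.6 in WT, which placed it 7th in WT, level with Osbpl11 within their spread, and 8th in Ccdc117ko. Osbpl8 stood at 154 ± 5.72 in Ccdc117ko and 165 ± 9.46 in WT. Below it came a step of 25.0-fold in WT to Osbpl3, with 5.69 ± 0.956 in Ccdc117ko and 6.61 ± 0.856 in WT. Osbpl6 was last, with 2.64 ± 0.232 in Ccdc117ko and 2.501 ± 0.697 in WT. All other neighbours in the WT order were apart beyond their ranges, while in Ccdc117ko Osbpl1a and Osbp overlapped. With the median transcript length in place of the longest, 5 members changed place, and Osbp2 was 2.17 times the next member in WT. Osbpl5 was then 4th in WT and 6th in Ccdc117ko, so the order rests on the transcript taken.

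**Figure D3:**
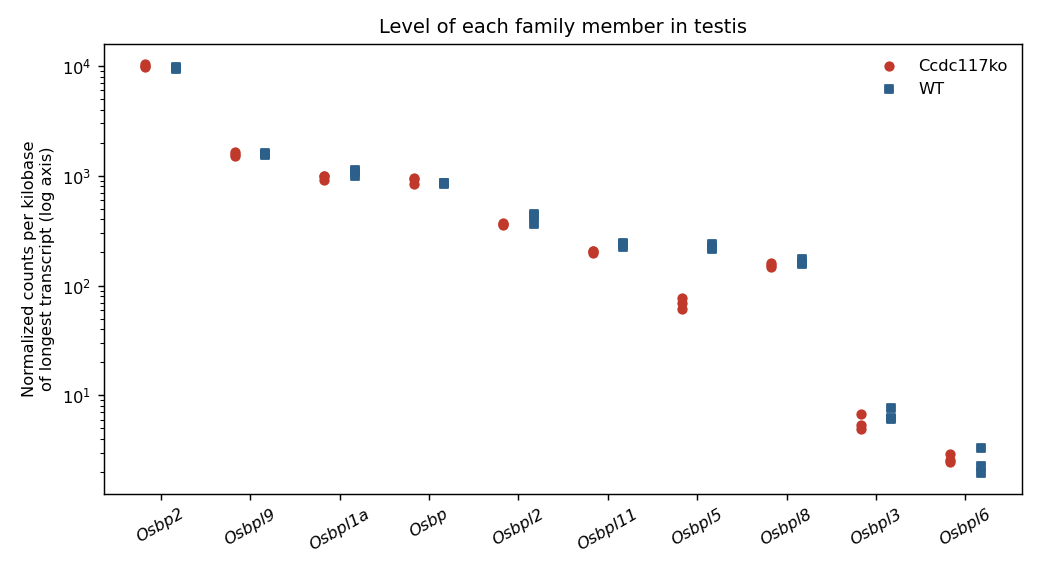
Normalized counts per kilobase of the longest transcript on a log axis for the 10 members, with Ccdc117ko points beside WT points for each library. The Ccdc117ko points of Osbpl5 lie near 69.0, below Osbpl8, while its WT points lie near 227, level with Osbpl11. By median transcript length (not drawn) Osbpl5 averages 394 in Ccdc117ko and 1294 in WT, above Osbpl11 in both. By that length it lies above Osbpl8 in WT and overlaps Osbpl8 in Ccdc117ko.

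Summed per kilobase, the transcripts of the 10 members came to 13927, 14523 and 14321 in the libraries labelled Ccdc117ko, against 14137, 14087 and 13980 in WT. The groups overlapped. Osbp2 alone made up 69.3% to 71.0% of the sum in Ccdc117ko and 67.0% to 68.8% in WT. Osbp2 was higher in every Ccdc117ko library than in every WT library, and the sum without it was lower. Without Osbp2 the sum was 4153, 4214 and 4402 in Ccdc117ko, against 4413, 4586 and 4619.6 in WT. That gap came with Osbpl5, on which the set was selected: without Osbpl5 too, the sums were 4077, 4153 and 4332 in Ccdc117ko, against 4188, 4372 and 4378 in WT, which overlapped. Of the sum without Osbp2, Osbpl5 made up 1.44% to 1.84% in Ccdc117ko and 4.67% to 5.22% in WT. All these sums leave out Osbpl7 and Osbpl10, which belong to the family but are not among the members. Osbpl10 averaged 6652 normalized counts in Ccdc117ko and 5766 in WT, and Osbpl7 1672 in Ccdc117ko and 1547 in WT. The lower sum without Osbp2 is thus that of the members, and no sum was taken over the whole family.

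The family has 2 further genes in the table that were not among the members. Osbpl10, whose product binds sterols and phosphatidylserine, had 6436, 6807 and 6713 normalized counts in the libraries labelled Ccdc117ko, against 6299, 5498 and 5502 in WT. All Ccdc117ko libraries were above all WT libraries. The log2 fold change was 0.21 ± 0.06 (SE), with a limma adjusted p of 0.0741. It was called higher after the length and GC correction (0.26, limma adjusted p = 0.0351), with upper-quartile scaling (limma adjusted p = 0.0485), with genes averaging under 10 normalized counts left out (limma adjusted p = 0.022) and without WT replicate 1 (limma adjusted p = 0.0369). Without any other single library it was not called, up to an adjusted p of 0.271, at log2 fold changes of 0.18 to 0.27 over the 6 fits. With low genes left out as well it was called in 2 of the 6. In the authors' deposited table its FDR was 0.00116. Osbpl7 had 1796, 1609.6 and 1611 normalized counts in the libraries labelled Ccdc117ko, against 1618, 1534 and 1489 in WT, with overlap, and was not called (log2 fold change 0.11 ± 0.06 SE, limma adjusted p = 0.311). In the Osbpl7 transcript, 7.39% of the 50-base words also occur in the opposite-strand gene Gm11574.

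Genes of the lipid exchange cycle around the family were mostly not called, and all calls as fitted were lower. With genes averaging under 10 normalized counts left out, 10 of these partner genes were called, beside 16.6% of all genes. Of 44 partner genes tested, 3 were called lower, 0 higher and 41 neither, against 3.10% and 3.70% of all genes. At an unadjusted p under 0.05 there were 24 of the 44, a larger share than the 7436 of the 32783 genes tested. That background includes many low genes. With genes averaging under 10 normalized counts left out, the partners were again 24, beside 7034 of 22878 genes. The median log2 fold change was -0.13 over the partners and 0.00 over all genes tested. With the length and GC correction the partner median was -0.02, against 0.02 for all genes. Under that correction 2 partners were called, Pip5k1b lower and Col4a3bp higher, and 13 had an unadjusted p under 0.05. Of all 32704 genes in the corrected fit, 1874 were called and 6654 had an unadjusted p under 0.05.

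Among 14 enzymes and scaffold subunits of PI4P metabolism, Pi4ka and Pip5k1b were called lower. Pi4ka, the kinase that makes PI4P at the plasma membrane, had 3905, 4052 and 4219.6 normalized counts in the libraries labelled Ccdc117ko, against 5152, 4722 and 5376 in WT. The groups did not overlap, and the log2 fold change was -0.32 ± 0.06 (SE; limma adjusted p = 0.0207). Corrected for length and GC, Pi4ka was at -0.19 (limma adjusted p = 0.0672), and without each library in turn it was not called in any of the 6 fits (log2 fold change -0.38 to -0.28, limma adjusted p 0.0652 to 0.124). Of those fits, 5 called only 6 to 22 genes of the whole table. With genes averaging under 10 normalized counts left out as well, Pi4ka was called in all 6 (limma adjusted p 0.00357 to 0.0163). Pip5k1b, which turns PI4P into the bisphosphate, had 332, 281 and 298 normalized counts in the libraries labelled Ccdc117ko, against 429.7, 459 and 458 in WT. These groups were clearly apart, with a log2 fold change of -0.56 ± 0.08 (SE; limma adjusted p = 0.016). The corrected value was -0.53 (limma adjusted p = 0.016). Pip5k1b was called without WT replicate 1 (limma adjusted p = 0.0418) and not without any other single library, up to an adjusted p of 0.109, at log2 fold changes of -0.63 to -0.51. With low genes left out as well it was called in all 6 fits (limma adjusted p 0.00199 to 0.0144).

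The endoplasmic reticulum anchors and the phosphatidylserine enzymes had no called gene in limma, and limma-voom also called 0 of either. Of 5 anchors, 3 had an unadjusted p under 0.05: Vapa, Vapb and Mospd3. Vapa, which tethers most family members, averaged 4537 ± 28.1 normalized counts in Ccdc117ko and 4944 ± 260 in WT (SD, n = 3 each; log2 fold change -0.12, limma adjusted p = 0.151). Its paralogue Vapb averaged 2340.0 ± 76.8 in Ccdc117ko and 2615 ± 35.6 in WT (log2 fold change -0.16, limma adjusted p = 0.0582). Mospd3, of the same domain family and named after its values were seen, lay the other way without overlap, with 994 ± 84.4 in Ccdc117ko and 829 ± 31.5 in WT (log2 fold change 0.26, limma adjusted p = 0.069). Of 3 phosphatidylserine enzymes 0 had an unadjusted p under 0.05. The synthase genes Ptdss2 and Ptdss1, which make the cargo of ORP5 and ORP8, had log2 fold changes of 0.02 and 0.04 (limma adjusted p = 0.758 and 0.593).

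Of 22 other lipid carriers of contact sites, Vps13d was called by limma as fitted, and limma-voom called 2. Vps13d encodes a bridge-like lipid transfer protein. Normalized counts were 562, 632 and 653 in the libraries labelled Ccdc117ko, against 748, 763 and 746 in WT. The groups did not overlap (log2 fold change -0.29 ± 0.07 SE, limma adjusted p = 0.0452). Vps13d, with a longest transcript of 15849 bases, was at -0.11 after the length and GC correction (limma adjusted p = 0.432). It missed the threshold with upper-quartile scaling (limma adjusted p = 0.0575), and it was not called in any of the 6 fits without a library (log2 fold change -0.34 to -0.23, limma adjusted p 0.0889 to 0.148). With genes averaging under 10 normalized counts left out as well, Vps13d was called in 3 of the 6 fits. Col4a3bp, the ceramide carrier between the endoplasmic reticulum and the Golgi, was named after its values were seen. It had 3749.6, 4009.9 and 4019 normalized counts in the libraries labelled Ccdc117ko, against 3676, 3463 and 3528 in WT, without overlap. Its log2 fold change was 0.14 ± 0.04 (SE; limma adjusted p = 0.0981), and 0.23 once length and GC were corrected, where it was called higher (limma adjusted p = 0.0222).

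The neighbourhood of Osbpl5 on chromosome 7 was read from the 3 nearest tested genes on each side that averaged 10 normalized counts or more. On the side of lower coordinates Tnfrsf23 and Tnfrsf22, decoy receptors of the tumour necrosis factor family, were weakly expressed. Tnfrsf22, 39.1 kb away, held 24.0, 23.4 and 15.1 normalized counts in the libraries labelled Ccdc117ko, against 48.8, 32.3 and 28.5 in WT, without overlap (log2 fold change -0.77 ± 0.29 SE, limma adjusted p = 0.165). Tnfrsf23, 2.89 kb away, held 5.0, 21.3 and 24.2 in the libraries labelled Ccdc117ko, against 20.6, 34.1 and 22.6 in WT, with overlap (-0.80 ± 0.55, limma adjusted p = 0.441). Neither was called. Gm15579, annotated as antisense and 87.5 kb away, was at 0.47 ± 0.31 (limma adjusted p = 0.426).

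On the side of higher coordinates Nadsyn1 and Dhcr7 were called higher. Nadsyn1, which makes NAD, stood 38.6 kb away and had 569.6, 607 and 606 normalized counts in the libraries labelled Ccdc117ko, against 490.5, 516 and 469 in WT. Dhcr7, the enzyme of the last step of cholesterol synthesis, stood 66.2 kb away and had 847, 1191 and 996 in the libraries labelled Ccdc117ko, against 719.5, 714 and 734 in WT. Both genes were separated by genotype, Dhcr7 with a wide spread among the Ccdc117ko libraries. Log2 fold changes were 0.27 ± 0.06 for Nadsyn1 and 0.47 ± 0.11 for Dhcr7 (SE; limma adjusted p = 0.0447 and 0.0463). Neither was called in any of the 6 fits without a library, with limma adjusted p of 0.0775 to 0.157 for Nadsyn1 (log2 fold change 0.24 to 0.31) and 0.0603 to 0.174 for Dhcr7 (0.35 to 0.59). With genes averaging under 10 normalized counts left out as well, Dhcr7 was called in all 6 fits (limma adjusted p 0.00237 to 0.0332) and Nadsyn1 in 3. Acte1, 110 kb away, was at -0.03 ± 0.04 (limma adjusted p = 0.704).

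**Figure D4:**
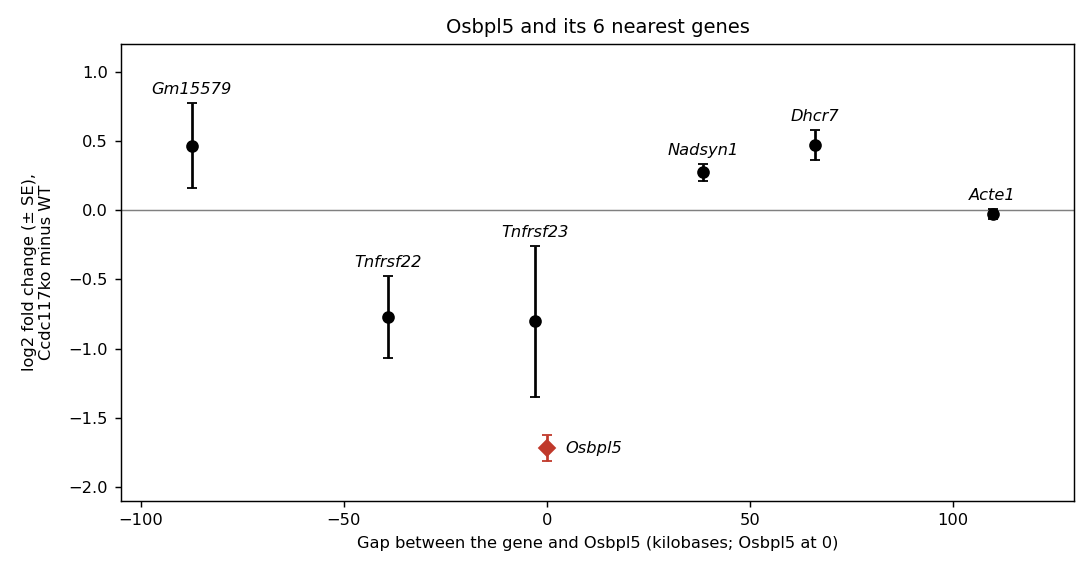
Log2 fold change with standard error, Ccdc117ko minus WT, for Osbpl5 and its 6 neighbours against the gap in kilobases between each gene and Osbpl5. The neighbours lie between -0.80 and 0.47 and Osbpl5 at -1.72.

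By the shape of its values over the 6 libraries, Osbpl5 was most like Tmem181b-ps, Gm34623, Gm21149, Tmem181c-ps and Rab4a. Likeness was the root mean square difference between log2 deviations from the gene mean, over 17548 genes that averaged 50 normalized counts or more. It was 0.17 for Tmem181b-ps and 0.33 for Rab4a, the least alike of the 5. Tmem181b-ps averaged 428 ± 37.9 normalized counts in Ccdc117ko and 1183 ± 88.2 in WT. Rab4a, a small GTPase of endosome recycling, averaged 202 ± 9.25 in Ccdc117ko and 427 ± 12.9 in WT (SD, n = 3 each). Being chosen for likeness, these genes share the lower Ccdc117ko values of Osbpl5 by construction. None of the 5 lies on chromosome 7. The Tmem181 pseudogenes may share reads with copies, so their values are uncertain.

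**Figure D5:**
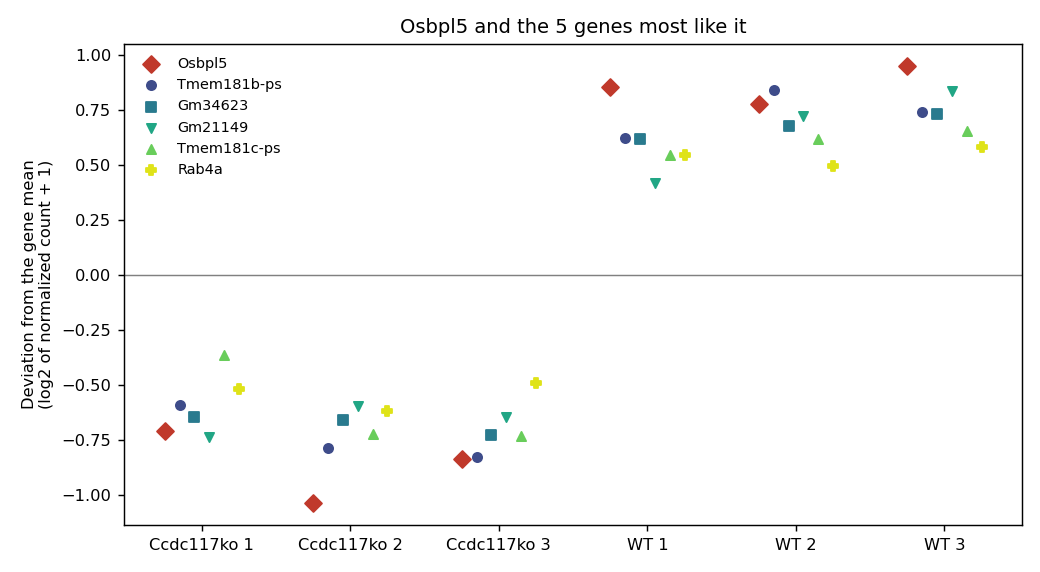
Deviation of log2(normalized count + 1) from the gene mean in each library for Osbpl5 and the 5 genes most like it, with Ccdc117ko libraries left of WT libraries. For all 6 genes the Ccdc117ko libraries lie below 0 and the WT libraries above 0, which follows from how the genes were chosen.

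Some cell type markers also differed between the genotypes, and their part in the values of the family was not tested. Beside the counts below, limma called 6.80% of all genes tested and 16.6% of those averaging 10 normalized counts or more. A list with 1 or 2 calls is not read as a change of that cell type. All 8 round spermatid markers were called higher, their summed normalized counts running from 55409 to 58877 in Ccdc117ko and from 43832 to 48818 in WT. The Leydig list had 3 of 8 called higher and 1 lower (79197 to 92139 in Ccdc117ko, 66862 to 77389 in WT), with Insl3 and Cyp17a1 the most abundant. Sertoli markers had 6 of 10 called lower (17512 to 18345 in Ccdc117ko, 19525 to 20602 in WT), of which 2, Cldn11 and Kitl, were called after the length and GC correction. Spermatogonial markers had 2 of 8 called lower (8332 to 8858 in Ccdc117ko, 10008 to 10866 in WT). Spermatocytes had 1 of 8 called lower (41684 to 42259 in Ccdc117ko, 44466 to 47008 in WT) and macrophages 2 of 8 lower (3277 to 3558 in Ccdc117ko, 3585 to 4176 in WT). Elongating spermatids had 2 of 8 called higher, with overlapping sums (580409 to 622591 in Ccdc117ko, 552944 to 607548 in WT). With the correction, 7 round spermatid, 4 Leydig, 2 spermatogonial and 1 each of the spermatocyte, macrophage, elongating spermatid and myoid markers were called. Peritubular myoid cells had 1 of 6 called each way (14860 to 15535 in Ccdc117ko, 13665 to 14389 in WT). That sum was mostly Actg2, with 10984 ± 95.2 in Ccdc117ko and 9588 ± 331 in WT (SD, n = 3 each), while the other 5 myoid markers had log2 fold changes below 0. Endothelial cells (8 markers), fat (6) and epididymis (4 tested) had 0 called by limma or limma-voom, with 1, 2 and 2 at an unadjusted p under 0.05. Sums were 1840.3 to 2046 in Ccdc117ko and 2056 to 2310 in WT for endothelial cells, 15358 to 16146 in Ccdc117ko and 16507 to 18390 in WT for fat, and 137 to 178 in Ccdc117ko and 168 to 201 in WT for epididymis, which overlapped. Lipe made up nearly all of the fat sum, with 15392 ± 388 in Ccdc117ko and 17101 ± 957 in WT (SD, n = 3 each), and Adipoq lay the other way (log2 fold change 0.43, limma adjusted p = 0.0934). Fabp4, Cidec and Lep averaged only 5.36, 12.7 and 3.04 normalized counts in Ccdc117ko, against 9.03, 11.9 and 4.78 in WT. The fat sum thus describes Lipe and not the fat list.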

How the data were processed

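Per the labels' protocols, TRIzol RNA from testis went through a stranded mRNA kit and an Illumina HiSeq instrument. STAR, DESeq2 and mm10 appear in the submitters' processing notes, without versions; how reads were counted is not given in the sources used here. Per library the authors deposited a log2 value, whose size and steps fit log2(normalized count + 1): 100% of values under 500 reads were whole reads within 0.01. The authors' deposited table also gives log2 fold changes and a p-value and FDR whose test is not stated. Genotype was the only term in limma-trend (limma 3.58.1, R 4.3.3) over the 32783 genes averaging 0.5 normalized counts or more, two-sided, with Benjamini-Hochberg adjustment over all of them and a threshold of 0.05. Because 1 is added before the log2, fold changes of low genes are understated. GENCODE M21 (GRCm38) gave coordinates and transcripts for 36551 of 36652 genes. The length and GC correction removed a smooth trend of each library with both. Replicates of a genotype differed by more than counting noise (chi-square per degree of freedom 4.43 to 7.00). The fit was also run on simulated reads with the same spread setting for every gene, so that run does not measure its error in these data.

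The members, lists and tests were chosen with earlier results of these data known. Named genes are all members, Osbpl7 and Osbpl10, called partner genes (or the 2 most abundant of a list with none), 6 neighbours, the 5 genes most like Osbpl5 and the most abundant markers. Genes shown only to rank the fall of Osbpl5, and Col4a3bp, Mospd3 and Kitl, were named after their values were seen. Alternatives covered filters, pseudocount, scaling, limma-voom on recovered reads, length and GC, the replicate number as a block and leaving out each library.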

Additional observations from a re-analysis of the deposited data

How the results depend on the processing

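The log2 fold change of Osbpl5 was below 0 under all alternatives run, and its call was lost only without Ccdc117ko replicate 3. Leaving out each library in turn gave -1.79 to -1.63 for Osbpl5, 6 to 1268 genes called over the whole table (5817 to 7349 at an unadjusted p under 0.05), 0 to 2 members (2 to 5 unadjusted), 0 to 5 partner genes (13 to 20 unadjusted) and 0 of the Osbpl5 neighbours (2 to 3 unadjusted), all in limma. With genes averaging under 10 normalized counts left out together with leaving out each library, chosen after seeing the data, the ranges were 1714 to 4021 genes, 1 to 3 members with Osbpl5 in all 6 fits, 2 to 13 partners and 1 to 2 neighbours. Filters alone gave 3798 genes, 2 members and 10 partners at a mean of at least 10, and 4127 genes, 2 members and 12 partners at 1 CPM in 3 libraries, where Osbpl6 was not kept and has no value. The cause of these shifts was not tested.

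The replicate number as a block gave 703 genes, 1 member, 2 partners (Vps13d not called) and 0 neighbours in limma (3 neighbours at an unadjusted p under 0.05). Same-numbered libraries of the genotypes had correlations of -0.004 to 0.006 in their deviations from the genotype means. The labels do not say whether the numbers pair them, and such correlations cannot settle it. With the length and GC correction 2 members were called (Osbpl5 and Osbp2) and the split of calls was 1442 higher and 432 lower, against 1212 and 1016 as fitted. With upper-quartile scaling it was 1540 and 809, and the median of all genes was 0.02. The length and GC correction moved Osbpl8 to 0.01, Osbpl9 to 0.05, Osbpl11 to -0.11, Osbp to 0.19 and Osbp2 to 0.17; the cause was not tested. The other 5 members moved by less than their replicate spread. With the median transcript length, 5 members changed place in the order per kilobase.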
